A study of Homo sapiens with 3 samples.

Results

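The regions described here are the chromatin accessibility peaks of human chromosome 6, 14070 of the 215590 peaks in the feature table (6.53%). The peaks were taken by position alone, but the chromosome was chosen because of their share of each cell's peak counts. That share was also the measure taken from them, so its spread over cells is a description. The series read RNA and open chromatin from each cell by 10x Genomics Multiome, to ask how cells escape inhibition of TEAD, the transcription factors that the Hippo pathway restrains. The pool held NCI-H226, a mesothelioma line that is null for NF2, and CL3, a GNE7883-resistant derivative of it described as 1 clone, and each was given the TEAD inhibitor GNE7883 or its vehicle DMSO. CL3 had been grown in inhibitor raised by 0.1 to 0.5 µM at a time, starting at 0.25 µM and ending at 3 µM. The 4 hashtags that marked the conditions are listed but their counts were not used here, so the line and treatment of each cell are unknown and all cells form 1 pooled sample with no replicates. All comparisons are therefore between groups of cells, carry 95% intervals that cover counting error only, and give no p-value. Intervals on the spread over cells are made otherwise and are described where given.

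Barcodes counted as cells when both their UMIs (unique molecular identifiers, the RNA molecules counted) and their peak counts reached 1000 and mitochondrial genes gave no more than 20% of UMIs, and 8913 passed. These cells had medians of 1524 UMIs and 4034 peak counts, of which a median of 234 (range 23 to 3665) lay on chromosome 6. Barcodes just inside the limit, with 1000 to 1249 peak counts, had 5.82% of them on chromosome 6 (574 barcodes). Those just outside, with 750 to 999, had 5.76% (630 barcodes). The keratins KRT18 and KRT8 and the mesothelial calcium-binding protein CALB2 were among the expressed markers, with CALB2 at 897 CPM (UMIs scaled to a common total of nuclear-gene UMIs, counts per 1e+06). The leukocyte marker PTPRC stood at 0.280 CPM, the endothelial marker PECAM1 at 1.33 CPM and the epithelial marker EPCAM at 0.280 CPM. Other members of the marker lists went the other way. The epithelial list held KRT7 at 2123 CPM and the endothelial list KDR at 19.4 CPM. Of the fibroblast list COL1A1 stood at 125 CPM and COL3A1 at 0.561 CPM, and the mesothelial marker DES stood at 0.351 CPM.

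A peak is a stretch of DNA that the transposase can reach, usually a promoter or an enhancer. Counts over all peaks of a chromosome depend both on how many copies of it a nucleus holds and on how open its elements are, and RNA from its genes also depends on both. Chromosome 6 carries the major histocompatibility complex and the largest histone gene cluster on its short (p) arm. Its long (q) arm carries genes that include the Hippo kinase LATS1, the YAP/TEAD targets CCN2 (a matricellular growth factor) and NT5E (the ecto-nucleotidase CD73), and the matrix protein THBS2. TEAD3, a TEAD factor itself, lies on the p arm.

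Of the 2083 chromosome 6 promoters in the RefSeq table of GRCh38.p14 (250 bases before to 50 after a gene's start), 1131 overlapped a chromosome 6 peak. The promoters of the Hippo pathway genes, of THBS2 and of SYNCRIP, whose start carried the most counts of all chromosome 6 peaks, are shown because the results below return to these genes. Capitals mark, on either strand, matches to the core motif of TEAD factors (GGAATG), the motif bound by NF-Y (CCAAT), the motif of AP-1 (TGANTCA), the GC box (GGGCGG) and the core motif of ETS factors (CCGGAA), and matches may overlap.
CCN2 (chr6:131951323-131951622, minus strand): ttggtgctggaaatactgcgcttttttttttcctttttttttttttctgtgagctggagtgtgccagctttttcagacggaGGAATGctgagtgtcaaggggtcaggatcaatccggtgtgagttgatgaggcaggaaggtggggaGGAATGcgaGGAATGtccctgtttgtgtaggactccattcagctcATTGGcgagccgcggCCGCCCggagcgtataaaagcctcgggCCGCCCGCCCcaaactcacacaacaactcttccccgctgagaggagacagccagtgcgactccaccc
THBS2 (chr6:169253797-169254096, minus strand): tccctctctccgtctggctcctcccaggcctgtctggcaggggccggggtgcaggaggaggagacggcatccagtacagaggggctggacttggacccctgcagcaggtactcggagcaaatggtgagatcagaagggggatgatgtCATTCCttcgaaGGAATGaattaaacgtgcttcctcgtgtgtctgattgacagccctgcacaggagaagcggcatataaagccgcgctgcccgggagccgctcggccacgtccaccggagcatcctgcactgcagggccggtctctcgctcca
NT5E (chr6:85449833-85450132, plus strand): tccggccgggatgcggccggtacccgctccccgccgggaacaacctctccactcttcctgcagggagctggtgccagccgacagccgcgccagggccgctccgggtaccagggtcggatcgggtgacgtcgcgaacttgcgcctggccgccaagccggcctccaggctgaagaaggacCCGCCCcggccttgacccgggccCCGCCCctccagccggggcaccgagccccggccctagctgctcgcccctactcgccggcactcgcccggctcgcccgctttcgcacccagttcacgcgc
LATS1 (chr6:149718052-149718351, minus strand): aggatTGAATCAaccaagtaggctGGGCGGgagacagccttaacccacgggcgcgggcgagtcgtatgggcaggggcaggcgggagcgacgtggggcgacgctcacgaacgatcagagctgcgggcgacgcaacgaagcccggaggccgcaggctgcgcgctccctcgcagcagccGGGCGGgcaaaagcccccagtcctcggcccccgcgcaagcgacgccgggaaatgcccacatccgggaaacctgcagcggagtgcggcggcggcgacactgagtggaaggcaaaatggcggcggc
TEAD3 (chr6:35497030-35497329, minus strand): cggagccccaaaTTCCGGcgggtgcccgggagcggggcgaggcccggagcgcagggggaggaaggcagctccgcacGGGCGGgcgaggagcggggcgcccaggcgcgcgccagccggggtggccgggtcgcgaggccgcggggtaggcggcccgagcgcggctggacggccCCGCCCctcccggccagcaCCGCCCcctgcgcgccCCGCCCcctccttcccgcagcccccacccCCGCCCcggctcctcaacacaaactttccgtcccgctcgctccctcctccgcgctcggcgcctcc
SYNCRIP (chr6:85643821-85644120, minus strand): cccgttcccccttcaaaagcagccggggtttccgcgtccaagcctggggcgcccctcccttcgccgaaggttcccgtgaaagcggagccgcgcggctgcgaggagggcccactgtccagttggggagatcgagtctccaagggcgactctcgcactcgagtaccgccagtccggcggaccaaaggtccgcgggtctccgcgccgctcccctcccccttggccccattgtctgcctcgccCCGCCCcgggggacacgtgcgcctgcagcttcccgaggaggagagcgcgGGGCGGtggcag
GGAATG occurred 3 times in the CCN2 promoter, 2 times in that of THBS2 and not in the other 4 windows shown. Over the chromosome, 14.8% of promoters held GGAATG, against 14.0% of all promoters in the table, and 8.07% held TGANTCA, against 7.71%. CCAAT was in 35.6% of chromosome 6 promoters and 34.6% of all, GGGCGG in 43.2% and 45.0%, and CCGGAA in 15.3% and 17.2%. A match describes the letters and not the binding of a factor.

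Of the peaks, 5636 lay on the p arm and 8434 on the q arm, with the arms divided at 60 Mb. Their median length was 880 bases (253 to 1208). Within 1000 bases of a gene start were 23.1% of chromosome 6 peaks and 25.6% of the other peaks. A chromosome 6 peak had a count in a median of 45 cells, and every one had a count in at least 1 cell. The most widely open, at the start of SYNCRIP (an RNA-binding protein), was counted in 1761 cells. The next were the shared start of OARD1 and NFYA, with 3245 counts, and that of PHF1, a Polycomb-associated protein, with 3220.

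Chromosome 6 took 5.82% (5.81 to 5.83) of all peak counts and 5.37% (5.35 to 5.38) of nuclear-gene UMIs. Over cells the peak share had a median of 5.83%, with 90% of cells between 4.59% and 7.01%. The p arm gave 2.82% and the q arm 3.00%. The standard deviation over cells was 0.743 percentage points, where binomial counting alone would give 0.598 when 2 counts are treated as 1 event. The variance was thus 1.54 times the counting variance (1.497 to 1.588). The intervals of this ratio are chi-square intervals that treat the cells of the pool as independent normal draws, so they are not counting intervals. This ratio moved with depth, being 1.11 in the 10% of cells with the fewest peak counts and 5.36 in the 10% with the most. Between these groups the standard deviation itself fell from 1.01 to 0.626 percentage points, while that of binomial counting fell from 0.962 to 0.270. In the 3569 cells with at least 5000 peak counts it was 2.87 (2.74 to 3.00), and 90% of those cells lay between 4.74% and 6.75%. The spread in the deeper cells leaned to low values, with 94 cells under 4.5% and 78 over 7%.

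**Figure D1:**
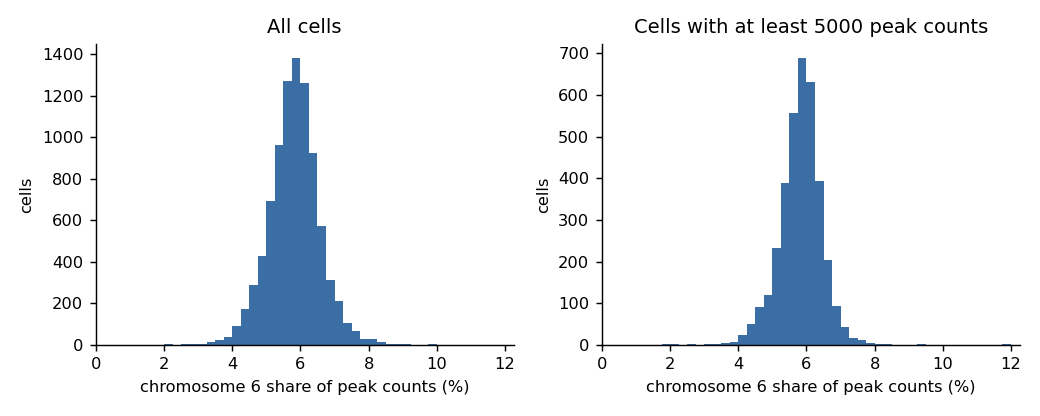
Number of cells (vertical axis) by chromosome 6 share of peak counts in percent (horizontal axis, bins of 0.25), for all 8913 cells on the left and for the 3569 cells with at least 5000 peak counts on the right. Both form 1 peak near 5.8%, narrower in the deeper cells.

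Part of the spread was shared by separate sets of chromosome 6 peaks. Odd- and even-numbered peaks shared a standard deviation of 8.25% of the mean share, and the p and q arms shared 7.20%. The arms' shares correlated at Pearson r = 0.177 over all 8913 cells and 0.313 over the 3569 deeper cells. These are descriptions over cells of 1 pool, whose arms share a library and a denominator. Chromosome 6 did not stand apart from the other chromosomes: its variance ratio ranked 10 of 23, and its shared standard deviation 17 of 23.

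RNA moved in the same direction as chromatin. Cells were ranked by chromosome 6 peak share within 10 bins of equal depth, and the highest and lowest 25% of each bin form the cells of high and low share, 2223 each. By construction their peak shares differed (6.60% in high cells, 4.98% in low cells). Chromosome 6 genes took 5.56% of UMIs in high cells (5.53 to 5.58) and 5.11% in low cells (5.09 to 5.14), a ratio of 1.086 (1.079 to 1.093). Over 10 groups of rising peak share, from 4.58% to 6.93%, the UMI share ran from 4.94% (4.91 to 4.97) to 5.64% (5.60 to 5.68). The largest step was at the low end, where the lowest group stood at 4.94% and the next at 5.22% (5.19 to 5.26). The groups from the fifth to the eighth lay between 5.42% and 5.44%. Peak share and UMI share correlated at Pearson r = 0.206 and Spearman rho = 0.169 over the 8913 cells, and at 0.336 and 0.260 over the deeper ones. The same comparison made with each chromosome's own peaks gave UMI ratios from 1.037 for chromosome 10 to 1.220 for chromosome 22, and chromosome 6 ranked 14 of 23.

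**Figure D2:**
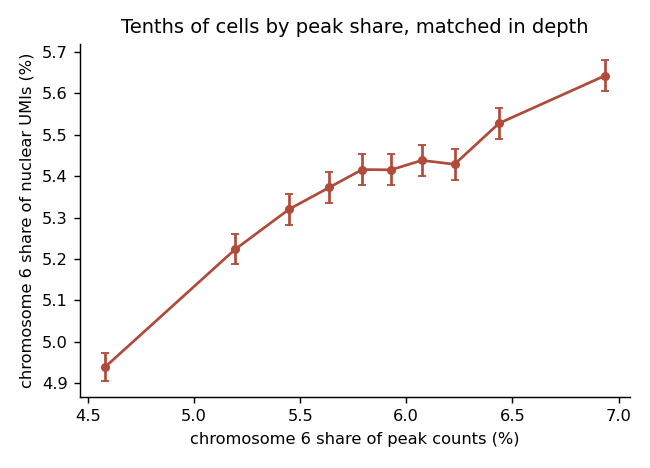
Chromosome 6 share of nuclear-gene UMIs in percent (vertical axis, not starting at 0) against chromosome 6 share of peak counts in percent (horizontal axis) for 10 groups of 890 to 900 cells ranked by peak share within bins of depth. Points are pooled values and bars are 95% counting intervals, and the UMI share runs from 4.94% in the lowest group to 5.64% in the highest.

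Depth, mitochondrial RNA and peak type were close between the groups. High cells had medians of 4032 peak counts and 1528 UMIs, 14.1% mitochondrial UMIs and 45.3% of peak counts near gene starts, and low cells 4028, 1566, 14.0% and 45.9%. Cell-cycle RNA was lower in high cells. The 20 S-phase genes summed to 773 CPM in high cells and 954 CPM in low cells, and the 20 G2/M genes to 1735 and 2185 CPM. Of the 16 S-phase genes compared, 8 had an interval below 1, and of the 19 G2/M genes 13 did, against 8.82% of all 7378 genes compared. TOP2A, which untangles DNA in mitosis, was at 426 CPM in high cells and 553 CPM in low cells. In the 950 cells with no UMI of either list, chosen after the data were seen, the chromosome 6 UMI share had a ratio of 1.099 (1.077 to 1.122).

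Counts of one arm were then described in cells split by the peaks of the other arm, so that the counts described did not choose the cells. Each arm's share was taken of its own counts plus those off chromosome 6, leaving out the arm that chose the cells. The p arm took 3.00% of these peak counts in cells high for the q arm and 2.75% in cells low for it, a ratio of 1.088 (1.080 to 1.095). The q arm took 3.19% in cells high for the p arm and 2.91% in cells low for it, a ratio of 1.098 (1.091 to 1.105). In RNA, with the same denominator, the ratio was 1.034 (1.024 to 1.044) for p-arm genes and 1.051 (1.043 to 1.060) for q-arm genes. Cell-cycle RNA differed between these splits. With cells split by the q arm the G2/M list was at 1652 CPM in high and 2256 CPM in low cells. With cells split by the p arm it was at 1946 CPM in high and 2016 CPM in low cells.

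Each arm was read in windows of 10 Mb, numbered 1 to 18 from the p-arm end, with 6 on the p arm, and each window's share was taken of its own counts plus those off chromosome 6. In cells split by the other arm, all 18 windows had a peak ratio above 1 with an interval above 1. With a floor of 1.1-fold, 9 of 18 windows were higher in high cells and none lower. Off chromosome 6, in cells split by all its peaks, 2.76% of 290 windows were at least 1.1-fold higher and 1.38% lower. Windows 18 and 6 had the highest ratios, 1.147 (1.061 to 1.238) and 1.140 (1.114 to 1.167). Window 4, which spans much of the major histocompatibility complex and had the most counts, had the lowest, 1.049 (1.036 to 1.062). In RNA, 17 of 18 windows were above 1 and 11 had an interval above 1. Window 13 was highest at 1.172 (1.125 to 1.220), and window 5 lowest at 0.999 (0.973 to 1.025).

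**Figure D3:**
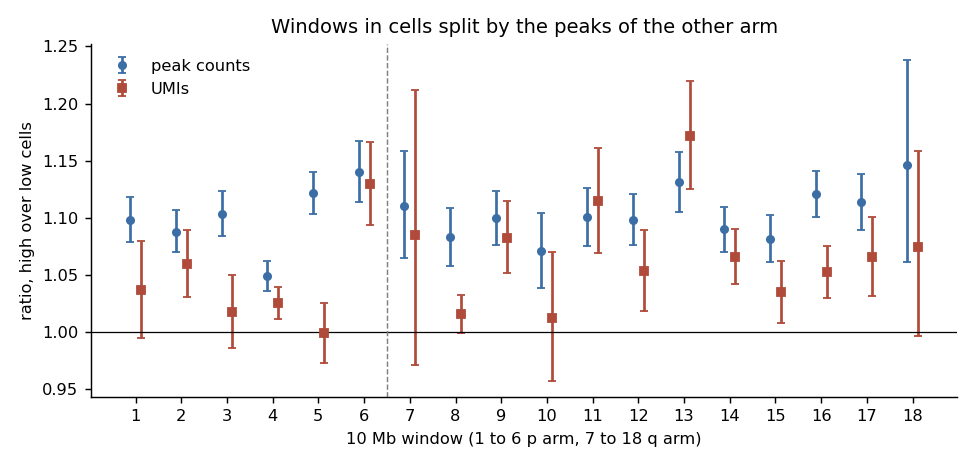
Ratio of high over low cells (vertical axis) for the 18 windows of chromosome 6 (horizontal axis), peak counts as blue circles and UMIs as red squares, with 95% counting intervals, in cells split by the peaks of the other arm. All 18 peak ratios lie above 1, from 1.049 to 1.147, and 17 of 18 UMI ratios do.

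Within the chromosome, the outer p arm and the q arm up to window 17 each held together more, on average, than they held with each other. Over the 3569 deeper cells the mean Pearson r between window shares was 0.181 among windows 1 to 4 (6 pairs, 0.156 to 0.205). Among windows 7 to 17 it was 0.123 (55 pairs, 0.0587 to 0.186). Between these blocks it was 0.0683 (44 pairs, -0.0188 to 0.120), a range that overlaps that of windows 7 to 17. Window 18, with 47 peaks, was left out of the blocks, and its r with windows 7 to 17 ran from -0.00302 to 0.0415. Windows 5 and 6 correlated at a mean of 0.0839 with the first block and 0.0877 with the second.

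Few individual genes differed by much, and on chromosome 6 those that did were all higher in high cells. Of 1827 chromosome 6 genes, 384 reached 100 UMIs over both groups and 20 CPM in the higher one, so that a gene could pass through the group where it was high. At 1.5-fold with an interval that excluded 1, 10 (2.6%) were higher in high cells and 0 lower. Of all 7378 genes compared 1.94% were past this floor, 0.745% higher and 1.19% lower, and of the 6994 off chromosome 6 0.643% were higher and 1.26% lower. At 1.2-fold, 67 (17.4%) were higher and 4 (1.04%) lower, against 3.99% and 6.29% of genes off the chromosome, 4.69% and 6.02% of all genes, and 10.7% of all genes in either direction. The median log2 ratio was 0.13 for chromosome 6 genes and -0.02 for those off it. In cells split by the other arm the chromosome 6 median was 0.08, with 0.03 for the p arm and 0.11 for the q arm.

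**Figure D4:**
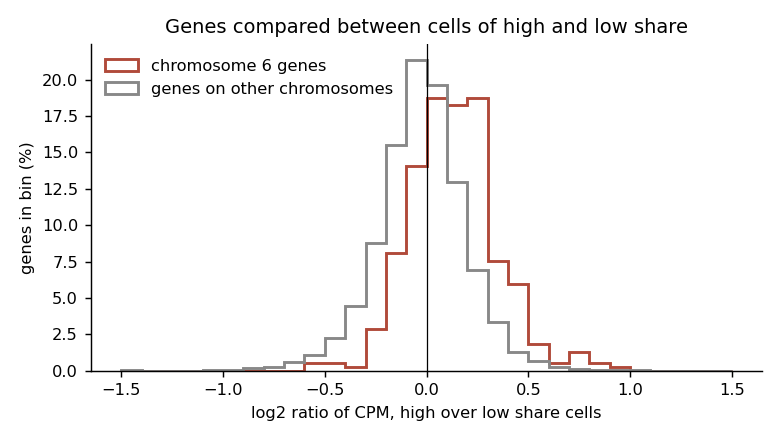
Percent of genes in each bin (vertical axis) by log2 ratio of CPM in high over low share cells (horizontal axis, bins of 0.1, values beyond 1.5 placed in the end bins), with the 384 chromosome 6 genes in red and the 6994 genes of other chromosomes in grey. The red distribution is shifted to the right as a whole, with medians of 0.13 and -0.02.

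Of the genes past 1.5-fold most were on the q arm, and 9 are given. The lncRNA AL078604.4 was at 69.2 CPM in high cells and 37.0 CPM in low cells (1.87-fold, 1.514 to 2.324). MAN1A1, a Golgi mannosidase that trims N-glycans, was at 33.7 and 18.2 CPM (1.85-fold). The glutamate receptor subunit GRIK2 had a ratio of 1.81, the poly(A) polymerase TENT5A 1.73, the importin KPNA5 1.70, the ubiquitin ligase RNF217 1.63 and HINT3 1.57. On the p arm, the lncRNA HULC had a ratio of 1.67. GFOD1 was at 112 CPM in high cells and 70.2 CPM in low cells (1.59-fold, 1.36 to 1.87). In cells split by the other arm GFOD1 kept a ratio of 1.56 (1.33 to 1.82) and AL078604.4 one of 1.62 (1.31 to 2.01), and with TENT5A these were the 3 of 10 genes that stayed past 1.5-fold. MAN1A1 was then at 1.47, RNF217 and HINT3 at 1.43 each, and the intervals of GRIK2, KPNA5 and HULC included 1.

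Of the 384 genes 8 (2.08%) had an interval below 1 and 100 (26%) above, against 8.82% and 7.54% of all genes compared. SYNE1, which links the nuclear envelope to the cytoskeleton, was at 107 CPM in high cells and 157 CPM in low cells (ratio 0.68, 0.598 to 0.778). The potassium channel KCNQ5 had a ratio of 0.70. The mitotic genes KIFC1 and TTK had ratios of 0.71 each, and TTK is also on the G2/M list. AMD1, which makes polyamine precursors, stood at 0.83, the cell-cycle inhibitor CDKN1A at 0.87, the chromatin protein DEK at 0.91 and the tubulin TUBB at 0.92. In cells split by the other arm KCNQ5 was at 0.979 (0.863 to 1.111) and TTK at 0.966 (0.746 to 1.251). AMD1 was at 0.842 (0.706 to 1.003), so these intervals included 1. SYNE1 was then at 0.752 (0.662 to 0.854) and KIFC1 at 0.605 (0.445 to 0.816), and CDKN1A, DEK and TUBB also kept intervals below 1.

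Of 11 class I antigen presentation genes of the p arm 9 were compared, 8 had a ratio above 1 and 4 an interval above 1. Of the 194 p-arm genes compared, 135 had a ratio above 1, and 22.7% had an interval above 1 and 2.06% below. Split by the other arm, 2 of the 9 had an interval above 1. In that split 109 of the 194 p-arm genes had a ratio above 1, 25 an interval above 1 and 11 below. TAPBP, which loads peptides onto class I molecules, was at 233 CPM in high cells and 186 CPM in low cells (1.26, 1.13 to 1.39). The peptide transporter subunit TAP1 was at 51.3 and 42.8 CPM (1.198, 0.963 to 1.49), with an interval that included 1. HLA, histone, tubulin and EEF1A1 genes have near-identical copies among which reads can be split, so their values are uncertain. None of the 8 class II genes reached the floor. Of 20 p-arm histone genes 5 were compared and 0 had a ratio above 1, but 0 had an interval below 1. HIST1H4C was at 216 CPM in high cells and 229 CPM in low cells (0.94, 0.855 to 1.04). All of these histone genes lie in window 3. In cells split by the other arm that window had a peak ratio of 1.104 (1.084 to 1.124) and a UMI ratio of 1.018 (0.986 to 1.050). With that split 1 of the 5 histone genes had a ratio above 1.

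Of 21 growth and transcription regulators of the p arm 12 were compared, 9 had a ratio above 1, 2 an interval above 1 and 2 below. Their median log2 ratio was 0.13, that of all chromosome 6 genes. Split by the other arm, 5 of the 12 had a ratio above 1, against 109 of the 194 p-arm genes compared. SOX4, a developmental transcription factor, had a ratio of 1.23 (1.08 to 1.40). The kinase gene PIM1 was at 1.32 (0.969 to 1.81) and the Polycomb cofactor JARID2 at 1.21 (0.939 to 1.55), with intervals that included 1. In the list of metabolic and scaffold genes, 12 of 19 were compared, 9 had a ratio above 1, 4 an interval above 1 and 1 below. In cells split by the other arm 1 had an interval above 1 and 2 below, where of all 194 p-arm genes 25 and 11 did. DST, a cytoskeletal linker, was at 943 CPM in high cells and 777 CPM in low cells (1.21, 1.15 to 1.28). The translation factor EEF1A1, which lies in window 8 on the q arm, was the most abundant member and stood at 6418 CPM in high cells and 6240 CPM in low cells (1.03, 1.01 to 1.05), and at 0.998 (0.980 to 1.016) in cells split by the other arm.

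Of 24 tumour suppressors and growth regulators of the q arm 18 were compared, 14 had a ratio above 1, 6 an interval above 1 and 0 below. Of the 190 q-arm genes compared 148 had a ratio above 1, and 29.5% had an interval above 1 and 2.11% below, so this list was near its arm. By the other-arm split 11 of the 18 had a ratio above 1 and 4 an interval above 1. Of the 190 q-arm genes 137 had a ratio above 1 in that split, 41 an interval above 1 and 4 below. The forkhead factor FOXO3 was at 103 CPM in high cells and 76.9 CPM in low cells (1.34, 1.14 to 1.57). The stress kinase MAP3K5 had a ratio of 1.39 (1.13 to 1.72) and the growth factor scavenger IGF2R 1.25 (1.09 to 1.43), which was 1.06 (0.924 to 1.21) in cells split by the other arm. TNFAIP3, an inhibitor of NF-kB signalling, at 1.24, and the ubiquitin ligase HACE1, at 1.205, had intervals that included 1. Of 21 adhesion, matrix and cytoskeleton genes 11 were compared, 4 had an interval above 1 and 1, SYNE1, below, also near the share of the arm. In cells split by the other arm 5 had an interval above 1 and 2 below. THBS2 was at 406 CPM in high cells and 295 CPM in low cells (1.37, 1.268 to 1.487). The laminin gene LAMA4 had a ratio of 1.202 (0.993 to 1.46).

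Among the Hippo pathway genes, NT5E was at 40.8 CPM in high cells and 31.1 CPM in low cells (1.31, 1.02 to 1.69). LATS1 was at 56.4 and 49.8 CPM (1.13, 0.923 to 1.39). CCN2, at 13.6 CPM in high cells and 19.8 CPM in low cells, and TEAD3, at 9.93 and 12.1 CPM, were under the floor. Their promoter peaks, in cells split by the other arm, had ratios of 1.197 (0.946 to 1.52) at NT5E, 0.962 (0.748 to 1.24) at LATS1, 1.15 (0.901 to 1.47) at CCN2 and 1.07 (0.851 to 1.33) at TEAD3. At the THBS2 promoter, printed above, the peak had 242 counts in high cells and 170 in low cells (1.46, 1.095 to 1.946). The RNA ratios above come from cells split by all chromosome 6 peaks. With the other-arm split the RNA ratio was 1.44 (1.12 to 1.86) for NT5E, 1.01 (0.820 to 1.25) for LATS1 and 1.24 (1.15 to 1.34) for THBS2.

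Single peaks were thinly covered. With at least 200 counts over both groups 1815 of 14070 could be compared in cells split by the other arm. An interval lay above 1 for 150 (8.26%) and below 1 for 20 (1.1%), against 2.26% and 4.37% of 29890 peaks off chromosome 6. The other-arm split applied to the chromosome 6 peaks alone, so these shares come from differently chosen cells. The median ratio was 1.05 on the p arm and 1.11 on the q arm. The largest on the p arm was a distal peak in window 1, at chr6:6881541-6882434, with 143 counts in high cells and 59 in low cells. On the q arm it was a peak at a start of the ribosomal S6 kinase gene RPS6KA2, at chr6:166690896-166691799, with 155 and 75. A peak at the start of the noncoding host gene SNHG32 was among the smallest, with 136 counts in high cells and 234 in low cells (0.589, 0.430 to 0.801). The start of SYNCRIP had 985 and 927 counts (1.09, 0.956 to 1.24).

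The largest gene differences lay off chromosome 6, where 6994 genes were compared against 384 on it, so extreme ratios had more room to occur. In high cells AC005580.1 (2.58-fold), the protocadherin PCDH7 (2.10-fold), the adhesion receptor ADGRL3 (2.06-fold), the transcription factor TRPS1 (1.99-fold) and PPP2R2B, a PP2A phosphatase subunit (1.91-fold), were highest, with AC138305.1, H6PD and UBA3 between 1.80 and 1.84. AC005580.1 was at 30.3 CPM in high cells and 11.8 CPM in low cells, so it passed the floor of 20 CPM through the high group alone. The same held for PCDH7, TRPS1, AC138305.1, H6PD and UBA3, but not for ADGRL3 and PPP2R2B. IGFBP5, an insulin-like growth factor binding protein, was at 8.79 CPM in high cells and 31.1 CPM in low cells (ratio 0.28). INHBA, which encodes the activin A subunit, was at 55.6 and 190 CPM (0.29). AC004704.1, CNTN5, ADAMTS6, SUGCT, CACNA1C and ATP8B1 had ratios from 0.35 to 0.50. Of 16 YAP/TEAD targets compared, 6 had an interval below 1 and 1, NT5E, above, where 8.82% of all genes had one below and 7.54% one above. CCN1, a matricellular target of YAP, was at 309 CPM in high cells and 385 CPM in low cells (0.80). As a share of the counts off chromosome 6, the other chromosomes had peak ratios up to 1.058 for chromosome 13. Chromosome 22 was lowest, with a peak ratio of 0.896 (0.888 to 0.905) and a UMI ratio of 0.925 (0.912 to 0.937).

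Cells were then clustered on the peaks of the other chromosomes. Of 7 clusters with at least 100 cells, cluster 6 (695 cells, led by INHBA, IGFBP5, AC004704.1, CNTN5 and ADAMTS6) had 5.24% (5.21 to 5.27) of its peak counts on chromosome 6, where the other 6 clusters had between 5.79% and 6.01%. Of its cells 11.2% were in the high group and 54.0% in the low group. These were 375 of the 2223 low cells, most of which lay in other clusters. Among deeper cells, 36.1% of cluster 6 had a share under 5%, against 3.07% to 13.2% of the other clusters. The cluster was not shallower, with a median of 4347 peak counts, against 4034 over all cells. No cell-type name was given to any cluster.

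In cluster 6 the whole chromosome was lower, in both readouts. All 18 windows had a peak ratio below 1 against the other cells, from 0.803 in window 7 to 0.920 in window 8, and all 18 intervals lay below 1. All 18 UMI ratios were below 1 too, from 0.776 to 0.955, also with every interval below 1. Near gene starts the peak ratio was 0.880 (0.872 to 0.889) and away from them 0.898 (0.891 to 0.905). Chromosome 6 genes took 4.90% of its UMIs (4.86 to 4.94), a ratio of 0.906 (0.898 to 0.913) to the other cells. Of 378 chromosome 6 genes compared, 257 were below 1, with a median log2 ratio of -0.13, against 0.03 for genes off the chromosome. At 1.5-fold 6 were higher and 22 lower, against 4.26% and 2.82% of all genes compared. Chromosomes 1 and 2 were lower in cluster 6 as well, with peak ratios of 0.919 and 0.910 and UMI ratios of 0.971 and 0.945. Chromosome 22 was higher, at 1.42 (1.41 to 1.44) in peaks and 1.33 (1.31 to 1.35) in UMIs.

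The genes named for clusters here were chosen after their values were seen. Higher in cluster 6 were SYNE1, at 309 CPM in cluster 6 and 116 CPM in the other cells (2.67-fold, 2.38 to 2.99), KCNQ5 (1.85-fold), the kinase SGK1 (1.62-fold) and CCN2, at 32.2 and 15.7 CPM (2.05-fold, 1.42 to 2.89). Lower were PIM1, at 11.3 CPM in cluster 6 and 26.3 CPM in the other cells (ratio 0.43), and STX7, an endosomal fusion protein, at 20.1 and 41.2 CPM (0.49). SYNE1 and KCNQ5 were also the lowest chromosome 6 genes in high cells against low cells. Without the cells of cluster 6 that ratio was 0.90 (0.779 to 1.05) for SYNE1 and 0.86 (0.744 to 0.991) for KCNQ5, and INHBA stood at 0.61 (0.500 to 0.741). These genes were named as high in cluster 6, so ratios nearer 1 without it follow in part from leaving it out.

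The chromosome-wide values were smaller with cluster 6 left out. That cluster had the lowest share, so leaving it out takes away low cells, and smaller values follow in part from this choice. No other cluster was left out for comparison. In the remaining 8218 cells the variance ratio was 1.46, the UMI ratio of high over low cells 1.065 (1.058 to 1.072) and the other-arm peak ratios 1.063 for the p arm and 1.064 for the q arm. The windows past 1.1-fold numbered 2 in place of 9, and the chromosome 6 genes past 1.5-fold 8 in place of 10. The number of genes compared in these cells is not given, so 8 is a count and not a share. Within each single cluster the UMI ratio of high over low cells was between 1.037 and 1.125, and its interval was above 1 in 6 of 7, the exception being cluster 7 with 122 cells.

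Cluster 1 (2548 cells, led by IL1RAPL1, IFI44L and HMGA2) had an ordinary total, 5.84%, made of blocks that went opposite ways. Taken of a block's own counts plus those off chromosome 6, windows 1 to 4 had a share of 2.30% in cluster 1 and 2.14% in the other cells (1.079, 1.072 to 1.085), with all 4 windows between 1.065 and 1.091. Windows 7 to 18 had 2.98% in cluster 1 and 3.13% in the other cells (0.954, 0.949 to 0.959), with 10 of 12 windows below 1 by their intervals. These windows were uneven, from 0.765 in window 7 and 0.862 in window 10 to 1.066 in window 18. Windows 5 and 6 together were at 1.014 (1.003 to 1.025). In RNA the blocks were at 1.058 (1.049 to 1.067) for windows 1 to 4 and 0.974 (0.967 to 0.980) for windows 7 to 18. Single q-arm windows were mixed in RNA, with 6 of 12 above 1, and windows 9, 11 and 14 had intervals above 1, at 1.049, 1.057 and 1.029. In bins of 2 Mb, 16 of 20 bins from 0 to 40 Mb had an interval above 1 and 1 below, and from 60 Mb on 3 of 55 lay above and 32 below. The first set ran from 0.776 to 1.136 (median 1.086) and the second from 0.409 to 1.072 (median 0.941). At the level of genes, 104 of 148 in windows 1 to 4 and 109 of 197 in windows 7 to 18 were above 1, where 4340 of all 7418 were. At 1.5-fold 15 of 390 chromosome 6 genes were higher and 8 lower, against 3.01% and 2.52% of all genes. NT5E, on the q arm, was at 56.9 CPM in cluster 1 and 28.7 CPM in the other cells (1.99-fold), and RUNX2, a p-arm transcription factor, at 70.8 and 32.9 CPM (2.15-fold).

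**Figure D5:**
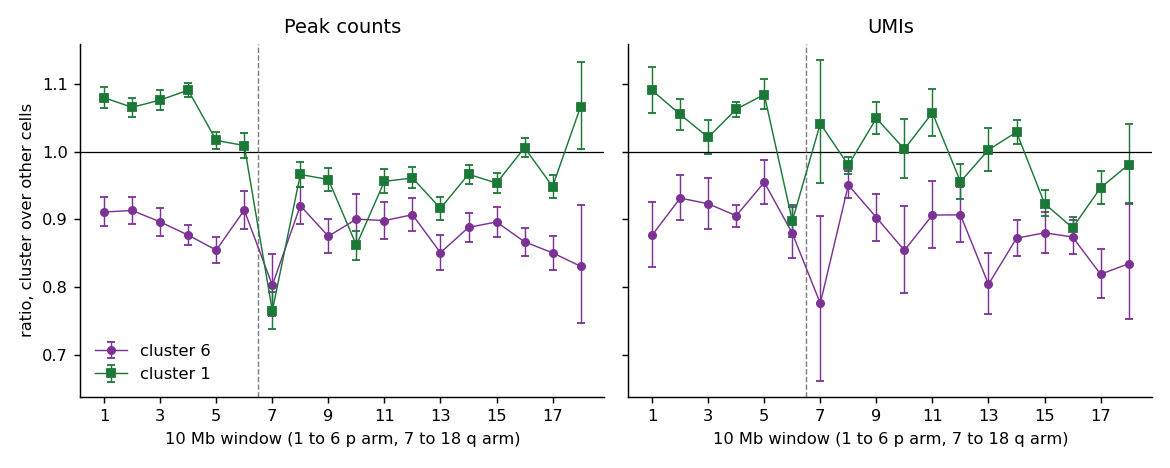
Ratio of a cluster over all other cells (vertical axis, not starting at 0) in the 18 windows of chromosome 6 (horizontal axis), peak counts on the left and UMIs on the right, for cluster 6 (purple circles) and cluster 1 (green squares), with 95% counting intervals. Cluster 6 lies below 1 in all windows of both panels, while the peaks of cluster 1 lie above 1 in windows 1 to 4 and mostly below 1 on the q arm.

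Cluster 4 (1405 cells, led by PPP2R2B, ADGRL3 and ITGB8) had the highest share, 6.01% (5.98 to 6.03), and 32.9% of its cells were in the high group. Its excess on the q arm was largest in windows 7, 10 and 13, at 1.39, 1.24 and 1.16 in peaks, where UMIs stood at 0.962, 1.04 and 1.13. At 1.5-fold 10 of 387 chromosome 6 genes were higher in cluster 4 and 11 lower, against 2.36% and 3.32% of all genes compared. THBS2 was at 510 CPM in cluster 4 and 329 CPM in the other cells (1.55-fold), GFOD1 at 175 and 79.3 CPM (2.20-fold), and NT5E at 17.5 and 40.1 CPM (ratio 0.44). Cluster 2 (1842 cells) was lower in windows 1 to 4, at 0.953 (0.947 to 0.960) in peaks and 0.943 (0.934 to 0.952) in UMIs. Its windows 7 to 18 were at 1.019 (1.013 to 1.025) in peaks but 0.989 (0.982 to 0.996) in UMIs, and windows 5 and 6 at 1.007 and 1.043. Cluster 3 (1587 cells) was higher in windows 7 to 18, at 1.055 (1.048 to 1.061) in peaks and 1.084 (1.076 to 1.093) in UMIs. Its windows 1 to 4 were at 0.964 (0.957 to 0.972) in peaks but 0.999 (0.989 to 1.009) in UMIs, and windows 5 and 6 at 1.047 and 0.965. Copy number and accessibility cannot be told apart from these counts, and whether a line, a treatment or doublets moved with the share was not tested.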

How the data were processed

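One pool of cells was measured for RNA, accessibility and hashtags, with 3 libraries. The deposited counts are whole and unnormalized, UMIs for genes and transposition counts for peaks, and come from Cell Ranger ARC 2.0.0 per the file headers. Per the submitters' processing notes, Cell Ranger 2.0.0, ArchR 1.0.3, MACS2 and GRCh38.p10 were also used, in roles not stated; the peak-calling settings are not given. Other deposited values, the start and end coordinates of features, were used to place them. Promoters come from RefSeq (GRCh38.p14).

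The mitochondrial limit removed 2217 of 11130 barcodes. Doublets could not be removed: Scrublet called 0 cells and has not worked. Of peak entries 87.9% were even, so intervals treat 2 counts as 1 event. Intervals cover counting error only, except those of variance ratios, which are chi-square intervals over cells taken as independent. Shares were summed over groups of cells, and ratios of shares or CPM carry exact conditional binomial 95% intervals. Genes needed 100 UMIs and 20 CPM, with calls at 1.5-fold. UMI shares use nuclear genes. Clusters came from peaks off chromosome 6 found in at least 20 cells (30 components, 15 neighbours, Leiden resolution 0.5, seed 0). Genes named are the 10 largest and 10 smallest ratios on chromosome 6 with an interval excluding 1 (8 such genes were below 1), 8 each way off it, list members past 1.2-fold and the 4 Hippo pathway genes, plus others from the lists as examples. Peaks named follow counts and ratios. Some genes are not reported here. The members and lists were chosen with earlier results of these data known. The scripts were tested on simulated data. The alternatives changed the cell filter, peak types, split, denominator, scaling, gene floor and clustering. Python 3.11.15, scanpy 1.11.5 and scipy 1.17.1 were used.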

Additional observations from a re-analysis of the deposited data

How the results depend on the processing

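Every chromosome-wide ratio (UMI share, other-arm peaks and other-arm UMIs) stayed above 1 under each alternative run, and the interval included 1 only for p-arm UMIs in the 1592 cells with at most 10% mitochondrial UMIs (0.995 to 1.045). Of 118 alternative values 54 stayed close to those reported (inside the interval, or within 1.5 times for counts). The others follow, each in the same direction as reported, and the cause was not tested. Counts of genes called are given without the number compared, which changes with the cells and the floors. They are not shares and do not set chromosome 6 against other genes. Where no count over all genes follows, it was within 1.5 times the 143 genes called in the main setting.

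With at least 2000 UMIs and 2000 peak counts the results were the variance ratio at 2.82, the UMI ratio at 1.144, the p-arm peak ratio at 1.130, the q-arm peak ratio at 1.147, the p-arm UMI ratio at 1.073, the q-arm UMI ratio at 1.083, windows past 1.1-fold at 17, genes called at 249 and chromosome 6 genes called at 30. With at least 500 of each the results were the variance ratio at 1.25, the UMI ratio at 1.062, the p-arm peak ratio at 1.077, the q-arm peak ratio at 1.083, the p-arm UMI ratio at 1.023, the q-arm UMI ratio at 1.038, windows past 1.1-fold at 3, genes called at 33 and chromosome 6 genes called at 2. In cells with at least 5000 peak counts the results were the variance ratio at 2.87, the UMI ratio at 1.122, the p-arm peak ratio at 1.099, the q-arm peak ratio at 1.111, the p-arm UMI ratio at 1.047, the q-arm UMI ratio at 1.066 and chromosome 6 genes called at 25. With at most 10% mitochondrial UMIs the results were the UMI ratio at 1.057, the p-arm peak ratio at 1.106, the p-arm UMI ratio at 1.020, the q-arm UMI ratio at 1.034, genes called at 43 and chromosome 6 genes called at 1. With distal peaks alone the results were the variance ratio at 1.28 and the q-arm peak ratio at 1.090. Without windows 3 and 4 the results were the variance ratio at 1.49 and the p-arm peak ratio at 1.107. Without bins of depth the results were the p-arm peak ratio at 1.098 and the q-arm peak ratio at 1.110. Between the highest and lowest 10% of cells the results were the UMI ratio at 1.143, the p-arm peak ratio at 1.169, the q-arm peak ratio at 1.178, the p-arm UMI ratio at 1.067, the q-arm UMI ratio at 1.099, windows past 1.1-fold at 18 and chromosome 6 genes called at 34. With a floor of 10 UMIs and no CPM floor the results were genes called at 465 and chromosome 6 genes called at 27. At 1.2-fold the results were genes called at 790 and chromosome 6 genes called at 71. In cells with no cell-cycle UMI, chosen after seeing the data, the results were the variance ratio at 1.633, the UMI ratio at 1.099, the p-arm peak ratio at 1.109, the q-arm peak ratio at 1.106, the p-arm UMI ratio at 1.068, the q-arm UMI ratio at 1.035, genes called at 29 and chromosome 6 genes called at 6. Without the cells of cluster 6, also chosen after seeing the data, the results were the variance ratio at 1.464, the UMI ratio at 1.065, the p-arm peak ratio at 1.063, the q-arm peak ratio at 1.064, the p-arm UMI ratio at 1.018, the q-arm UMI ratio at 1.028 and windows past 1.1-fold at 2. With clusters of expression drawn without chromosome 6 genes, the lowest cluster's peak share over the highest was 0.833, against 0.872 with clusters of chromatin.

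Among named genes, 532 values stayed inside their interval, 119 moved outside it and 6 changed direction. With at most 10% mitochondrial UMIs PPP2R2B stood at 0.730, AC138305.1 at 0.584, H6PD at 0.642 and AC004704.1 at 1.15. HULC stood at 0.957 without windows 3 and 4 and at 0.683 in cells with no cell-cycle UMI. All 6 intervals included 1. Depth limits what single cells and single peaks can show: in the shallowest cells counting error nearly equals the spread. No paired analysis was possible because all cells form 1 pooled sample with no replicates and no result comes from a test.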
